A study of Homo sapiens with 60 samples.

Results

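Oxidative phosphorylation is carried out by 5 protein complexes of the inner mitochondrial membrane, and the genes of their subunits are described here in SW1783, an established human astrocytoma line. Members were the protein-coding genes of the count table whose symbols follow the naming patterns of the subunits (NDUFA, NDUFB, NDUFC, NDUFS and NDUFV with a number, SDHA to SDHD, UQCR, COX4 to COX8, ATP5F1, ATP5M and ATP5P, and the subunits named MT-ND, MT-CO, MT-CYB and MT-ATP). The patterns matched 214 of 60675 genes in the table, 117 of these were not protein coding, and 97 members remained. Of the members 84 are encoded in the nucleus and 13 on the mitochondrial genome. Complex I gave 36 nuclear and 7 mitochondrial members, complex II 4 nuclear members, complex III 9 nuclear and 1 mitochondrial, complex IV 16 nuclear and 3 mitochondrial, and complex V 19 nuclear and 2 mitochondrial. The patterns leave out a few true subunits (COX4I1, NDUFAB1 and CYC1) and take in UQCRHL, an intronless copy of UQCRH, and ATP5MF-PTCD1, a readthrough gene.

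Electrons from NADH enter the chain at complex I and those from succinate at complex II. They pass through complex III and cytochrome c to complex IV, where oxygen is reduced, and ATP synthase (complex V) uses the proton gradient so made. Complexes I, III, IV and V each hold subunits from both genomes, whereas complex II is wholly nuclear. Nuclear subunit genes are transcribed singly from their own promoters, and the mitochondrial ones are cut from long transcripts of both strands of one small circular genome. Levels of RNA from the nuclear and the mitochondrial part can therefore be compared across treatments within each library.

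RNA was sequenced from 60 libraries in 25 groups, all from cells harvested 24 h after treatment. The vehicle group (3 libraries) received 0.1% DMSO according to its sample labels, whereas the series' design text gives 2% for the vehicle. The other groups received a water extract at a high (500 µg/mL), medium (100 µg/mL) or low (20 µg/mL) dose. The extracts were those of Cinnamomi Cortex, Astragali Radix, Rehmanniae Radix Preparata and Cnidii Rhizoma and of the mixed formula Sagunja-tang, with 3 libraries a dose. Samul-tang, another formula, had 2 libraries a dose, and Angelicae Gigantis Radix and Paeoniae Radix had 1. The design text adds that lower doses served where an extract was more toxic, and the doses used here are those of the sample labels. Sample codes place the vehicle in a set of its own (B1) and the extracts in sets 4 to 7, and a solvent level is given for the vehicle alone. Set and solvent therefore cannot be told apart from treatment in any comparison with vehicle, whereas comparisons between doses of 1 extract stay within a set. Whether replicates are separate cultures is not stated, and a p-value here weighs a change against the scatter of these samples alone, which may be technical.

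Libraries held 20604791 to 29609799 estimated counts. Astrocyte markers were mixed: GFAP, S100B, AQP4 and ALDH1L1 had medians of at most 0.097 CPM (counts scaled by library size), against 74.8 for SOX9, 122 for CLU and 23.5 for SLC1A3. Fibroblast and smooth muscle markers ran from medians of 14.1 CPM for DCN and 28.3 for LUM to 455 for THY1 and 3556 for COL1A1. Other types' markers were mixed as well. Among epithelial markers CDH1 had a median of 0 CPM and KRT18 of 208, and among leukocyte markers AIF1 had 0 and PTPRC 10.1. Sagunja-tang low-dose replicate 1 stood apart from every other library, as detailed with its values further on. Because all groups share 1 estimate of the spread, each count of changed members is also given without that library. In bulk RNA, fewer cells of a kind and less RNA per cell cannot be told apart.

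Several of the members lie on top of one another or near copies, which bears on how their reads were assigned. MT-ATP8 and MT-ATP6 share 46 bases of the mitochondrial genome at chrM:8527-8572 on the plus strand (GRCh38, read from the GENCODE 29 transcripts). In the line for this overlap the first capitals are the start codon of MT-ATP6 and the last are the stop codon of MT-ATP8.
MT-ATP8 and MT-ATP6 overlap: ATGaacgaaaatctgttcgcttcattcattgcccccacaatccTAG
MT-ND4L and MT-ND4 likewise share 7 bases. MTATP6P1, a nuclear pseudogene of MT-ATP6, took a mean of 575 CPM in vehicle, so reads of MT-ATP6 were split between them, and these genes' levels are uncertain. UQCRHL differs from UQCRH at 4 of 273 coding bases, and its level is uncertain for the same reason.

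Nuclear members also differ widely in base composition. The first 90 coding bases of 4 members that recur in the results are shown as examples, with each G and C in capitals. NDUFA1 and NDUFB3, small accessory subunits of complex I, and COX8A, a small subunit of complex IV, stand beside ATP5F1D, the delta subunit of the F1 part of ATP synthase.
NDUFA1: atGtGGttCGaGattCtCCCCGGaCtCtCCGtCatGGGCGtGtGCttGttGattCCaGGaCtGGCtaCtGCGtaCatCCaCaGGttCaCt
NDUFB3: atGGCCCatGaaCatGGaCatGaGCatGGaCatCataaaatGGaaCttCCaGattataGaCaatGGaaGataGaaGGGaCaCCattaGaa
COX8A: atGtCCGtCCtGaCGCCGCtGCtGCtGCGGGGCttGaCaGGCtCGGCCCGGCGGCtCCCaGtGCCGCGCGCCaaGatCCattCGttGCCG
ATP5F1D: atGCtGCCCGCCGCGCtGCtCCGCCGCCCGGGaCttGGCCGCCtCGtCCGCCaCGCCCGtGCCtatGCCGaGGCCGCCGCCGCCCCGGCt
Over the whole coding sequence G and C made up 42.9% of NDUFB3, 49.0% of NDUFA1, 65.7% of COX8A and 68.3% of ATP5F1D.

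In vehicle-treated cells the mitochondrially encoded members took 5.87% ± 0.118 (SD, n = 3) of all counts and the nuclear members 0.651% ± 0.0156. Per kilobase of transcript, the nuclear subunits of complexes I to V had median levels of 67.9, 67.1, 114, 121 and 110 CPM. The mitochondrial subunits had medians of 3882 CPM per kilobase for complex I and 9425 for complex IV, with 4308 for MT-CYB of complex III. Per kilobase the highest mitochondrial member in vehicle was MT-CO1, the catalytic subunit of complex IV, at 9668 ± 281, and the lowest was MT-ND6 at 979 ± 37.4 (SD, n = 3). MT-ND6 is the only one of the 13 read from the other strand. Among nuclear members of the complexes, ATP5MF of ATP synthase reached 577 ± 10.8 CPM per kilobase, COX8A 339 ± 14.7 and NDUFS5 of complex I 261 ± 10.1 in vehicle. By CPM over all libraries, MT-CO1 (14028), MT-ND4 (8289) and MT-CO2 (6604) led the mitochondrial members. ATP5F1B (444), the catalytic beta subunit of ATP synthase, ATP5F1A (254), UQCRB (188), UQCRC1 (186) and ATP5MF (183) led the nuclear ones.

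Paralogs that are known from heart, skeletal muscle or testis were at or near 0 in these cells, and the widely expressed forms were high. COX6A1 stood at 156 ± 10.7 CPM per kilobase in vehicle (SD, n = 3), while COX6A2 had no count there and at most 2 in any library. COX7A2, COX7A2L and COX7A1 stood at 187 ± 6.98, 44.4 ± 1.67 and 0.41 ± 0.211 CPM per kilobase in the vehicle libraries. COX6B1 stood at 236 ± 6.15 CPM per kilobase against 0.335 ± 0.0561 for COX6B2, and COX7B at 166 ± 8.27 against 0.478 ± 0.146 for COX7B2. COX8A had 339 ± 14.7 CPM per kilobase, and COX8C no count in vehicle. Of the genes for the c-ring of ATP synthase, ATP5MC2 and ATP5MC1 stood at 164 ± 4.07 and 133 ± 4.0 CPM per kilobase, and ATP5MC3 at 8.12 ± 1.16. COX6A2, COX7A1, COX8C and ATP5MGL did not pass the filter on low counts, which left 80 nuclear and 13 mitochondrial members among 17516 genes tested.

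To set the nuclear against the mitochondrial part, the mean of log2(CPM + 1) over the 80 nuclear members was taken in each library, and the same mean over the 13 mitochondrial members was subtracted. This difference is a description and was not tested. It was −5.59 ± 0.02 (SD, n = 3) in vehicle, with the 3 libraries between −5.61 and −5.56. The high dose of Cinnamomi Cortex gave −5.27 ± 0.30 (n = 3) and Sagunja-tang high gave −5.31 ± 0.14 (n = 3), and every library of both groups lay above the vehicle range. The 3 libraries of Cinnamomi Cortex high stood at −4.95, −5.55 and −5.30, so the second nearly touched the vehicle range. Sagunja-tang low had −5.02 ± 0.62 (n = 3), with replicate 1 at −4.31 and the others at −5.40 and −5.36, all above the vehicle range as well.

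The difference lay lower in Astragali Radix medium, at −5.75 ± 0.14 (n = 3), and high, at −5.71 ± 0.44 (n = 3), but both groups overlapped the vehicle. All 3 doses of Samul-tang, with 2 libraries each, lay above the vehicle range, at −5.40, −5.48 and −5.49 from high to low dose. Rehmanniae Radix Preparata (−5.47, −5.57 and −5.60) and Cnidii Rhizoma (−5.63, −5.58 and −5.60) overlapped it at every dose. The vehicle range is narrow. SDs were 0.05 to 0.27 at the doses of these extracts, which had no called member in the fit of all libraries, against 0.02 in vehicle. Single libraries of theirs reached −5.25 and −5.30. Lying outside the vehicle range therefore does not by itself show an effect of an extract. CPM are shares of 1 total, and both parts are drawn from it.

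**Figure D1:**
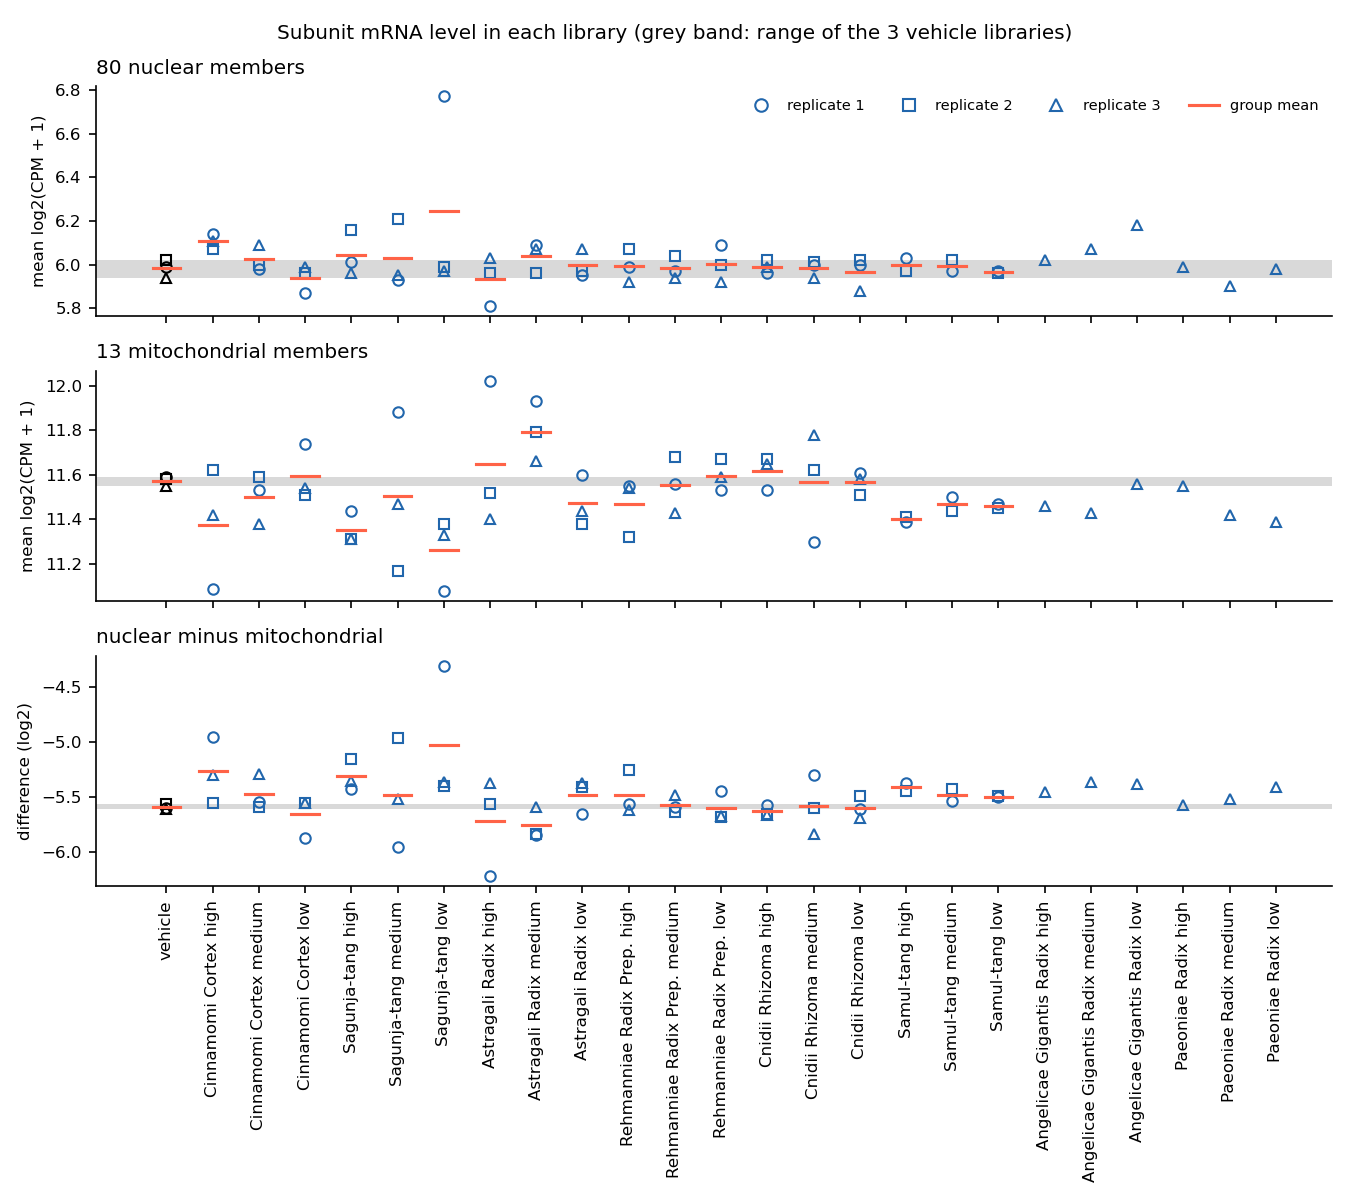
Mean log2(CPM + 1) of the 80 nuclear members (top panel) and of the 13 mitochondrial members (middle), and the difference of both (bottom, log2 units), for each of the 60 libraries by group along the x axis. Symbols tell replicates apart, red bars are group means and the grey band is the range of the 3 vehicle libraries, which sit between −5.61 and −5.56 in the bottom panel. The widest groups there are Sagunja-tang low, Sagunja-tang medium and Astragali Radix high, with SDs of 0.62, 0.49 and 0.44.

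The mitochondrial share of counts ran from 4.40% in Cinnamomi Cortex high replicate 1 to 8.05% in Astragali Radix high replicate 1. Libraries lay wholly below those of the vehicle (5.79% to 6.00%) for Sagunja-tang high, at 5.30% ± 0.19, and low, at 5.21% ± 0.277 (SD, n = 3 each). Both libraries of Samul-tang high (5.47% and 5.75%) and low (5.78% each) were also below them, the latter barely. Astragali Radix medium lay wholly above them, at 6.74% ± 0.63 (n = 3). Cinnamomi Cortex high overlapped them, with 4.40%, 6.24% and 5.70% in its libraries. In the same 3 libraries the nuclear share was 0.743%, 0.704% and 0.733%, above the 0.636% to 0.667% of the vehicle. SDs of the mitochondrial share were 0.246 to 0.763 at the doses of Rehmanniae Radix Preparata and Cnidii Rhizoma, against 0.118 in vehicle.

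At the high dose of Cinnamomi Cortex, the dried bark of cinnamon, 8 nuclear subunit genes, led by NDUFA1 and COX6C, were higher and 3 mitochondrial ones lower than in vehicle. A gene was called changed at an adjusted p under 0.05 in edgeR's quasi-likelihood test, with Benjamini-Hochberg adjustment over all 17516 genes. Of the nuclear members 8 of 80 were called higher and 0 lower, with a median log2 fold change of 0.16 against 0.005 over all genes. In the 3 high-dose libraries the median log2 ratio of nuclear members to vehicle was 0.14, 0.09 and 0.12. Genes with transcripts under 1 kb and a mean of at least 5 CPM had medians of 0.09, 0.05 and 0.08. Those above 4 kb had −0.09, −0.08 and −0.07. The part of transcript length in the member values was not tested. Among all genes tested 11.8% were called higher and 10.9% lower, so the nuclear share called, 10.0%, was near the background. Of the mitochondrial members 3 of 13 were called lower and 0 higher, with a median of −0.19. By complex, the 8 were 3 of 36 in complex I, 2 of 4 in complex II, 0 of 9 in complex III, 2 of 13 in complex IV and 1 of 18 in complex V. Without Sagunja-tang low replicate 1, 21 nuclear members were called higher and 4 lower and 4 mitochondrial members lower, against 17.6% of all genes higher and 18.3% lower.

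In complex I, NDUFA1 had 69.2, 66.1 and 62.7 CPM in the high-dose libraries and 40.6, 43.7 and 35.0 CPM in vehicle. The groups did not overlap, and the log2 fold change was 0.75 ± 0.26 (SE; adjusted p = 0.0342, edgeR's quasi-likelihood test with Benjamini-Hochberg adjustment). NDUFA8, an accessory subunit on the intermembrane side, had 48.0, 45.1 and 47.2 CPM against 37.6, 38.1 and 37.6. Every high-dose library was above every vehicle library, at 0.32 ± 0.12 (edgeR adjusted p = 0.0471). NDUFA1 and NDUFA8 lost the call whichever of the 6 libraries was left out.

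Complex II carries both the succinate dehydrogenase head (SDHA and SDHB) and the membrane anchors SDHC and SDHD. SDHC had 115, 108 and 109 CPM at the high dose and 88.2, 90.2 and 91.1 in vehicle. It had the smallest adjusted p of the members here (0.00213 by edgeR, log2 fold change 0.32 ± 0.08), and the call held without any 1 of the 6 libraries. SDHD had 59.6, 47.6 and 51.8 CPM against 45.5, 46.6 and 43.8, with groups that did not overlap and a log2 fold change of 0.24 ± 0.08 (edgeR adjusted p = 0.0333). It kept the call in 2 of 6 fits that left out 1 library each, and stood at 0.15 without high-dose replicate 1. SDHB was at 0.23 ± 0.10 and SDHA at 0.03 ± 0.07, and neither passed the test (edgeR adjusted p = 0.0864 and 0.825).

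In complex IV, COX6C had 73.7, 81.5 and 90.6 CPM at the high dose against 56.8, 58.7 and 49.6 in vehicle. The groups were apart, at a log2 fold change of 0.59 ± 0.18 (edgeR adjusted p = 0.0154). COX7A2L, which joins complexes III and IV into supercomplexes, had 58.1, 61.5 and 62.9 CPM against 49.0, 51.4 and 47.8. This was 0.32 ± 0.11 (edgeR adjusted p = 0.0264), also without overlap. In complex V, ATP5MC3, the least abundant of the c-ring genes, had 9.40, 8.23 and 8.74 CPM against 7.42, 7.39 and 5.71, at 0.38 ± 0.13 (edgeR adjusted p = 0.027). With 1 of the 6 libraries left out in turn, COX6C kept the call in 4 fits, ATP5MC3 in 3 and COX7A2L in 2. In complex III no nuclear member passed: UQCRQ was at 0.35 ± 0.23 and UQCR10 at −0.18 ± 0.12, with every high-dose library of UQCR10 below vehicle.

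**Figure D2:**
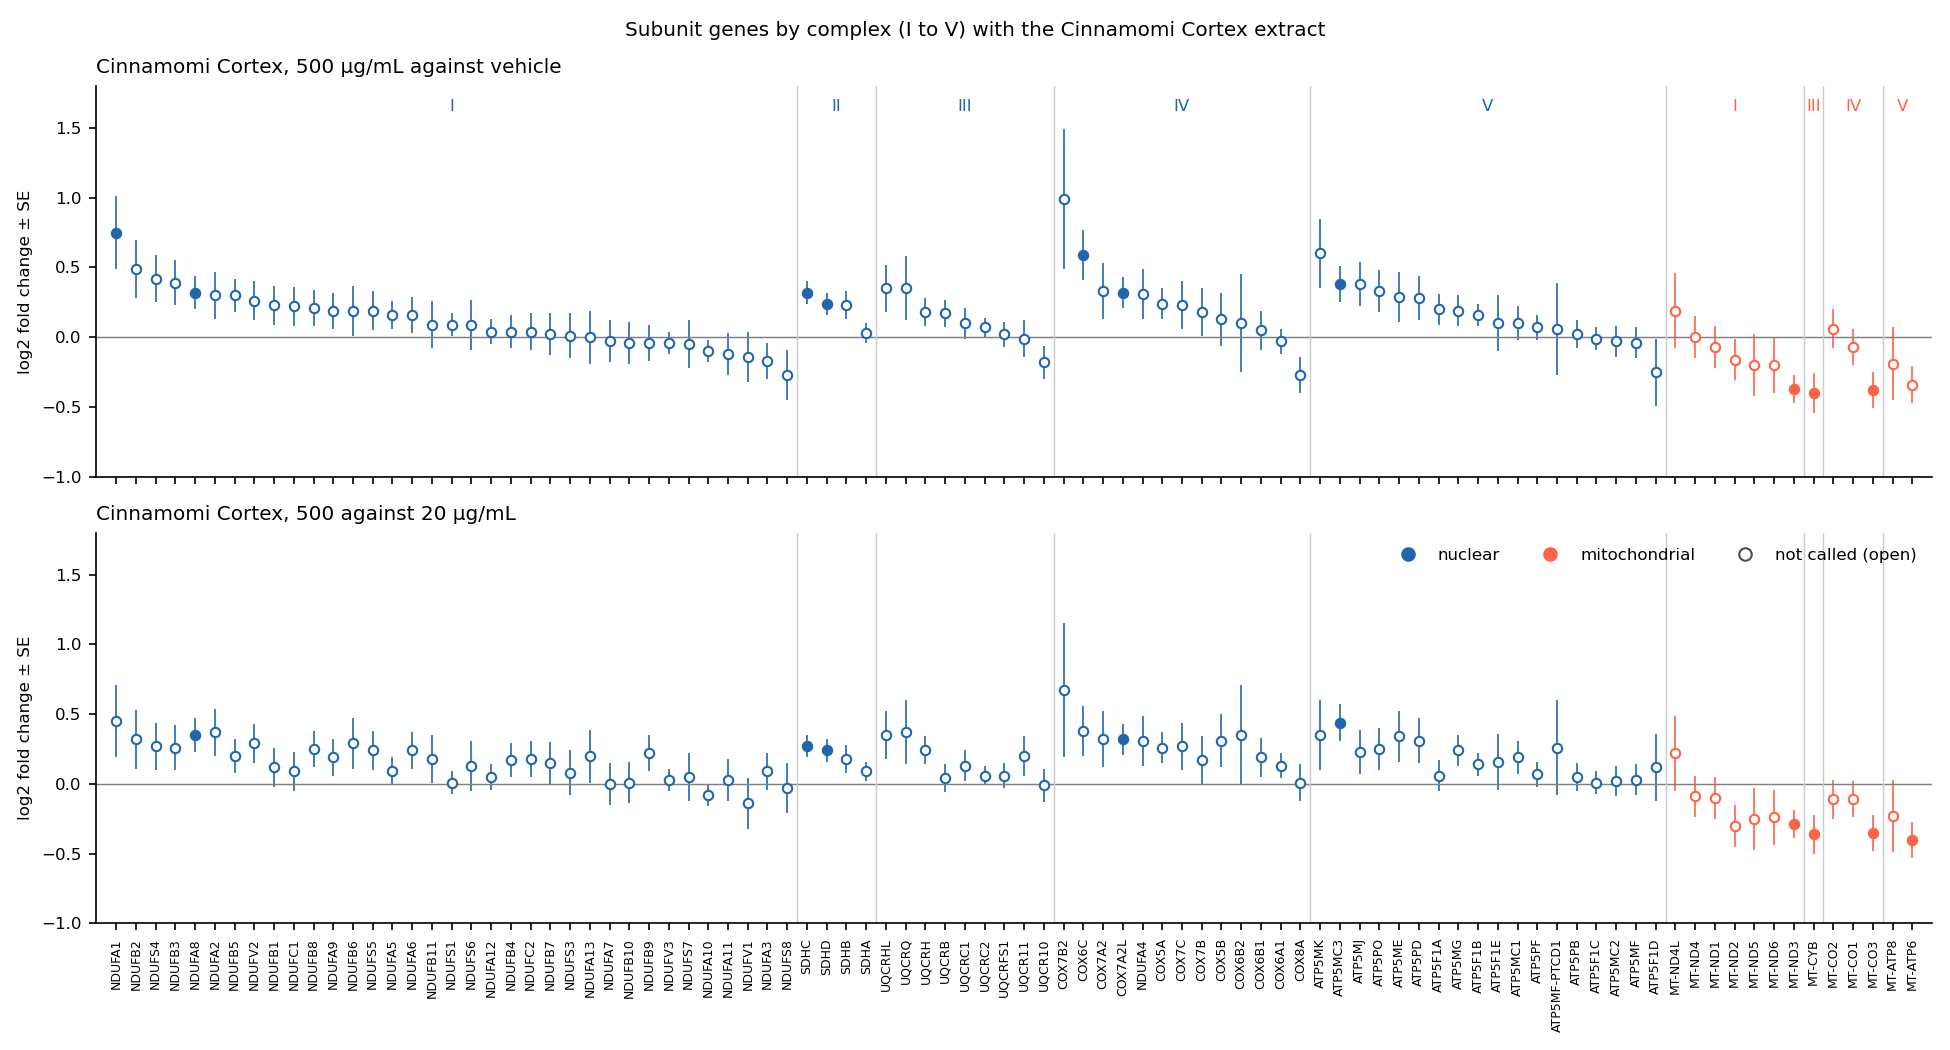
Log2 fold change (y axis, bars of 1 SE) of the tested members at 500 µg/mL Cinnamomi Cortex against vehicle (top panel) and against 20 µg/mL (bottom), with members grouped by complex along the x axis, nuclear ones in blue and mitochondrial ones in red. Filled points passed the test and open ones did not. Against vehicle the nuclear median is 0.16 and the mitochondrial median −0.19, and the called members run from −0.40 (MT-CYB) to 0.75 (NDUFA1).

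The mitochondrial transcripts did not move together. MT-CYB, the cytochrome b of complex III, had 3006, 4461 and 3607 CPM at the high dose of Cinnamomi Cortex and 4950, 4745 and 5050 in vehicle. MT-CO3, a core subunit of complex IV, had 4316, 5822 and 5421 CPM against 7161, 6751 and 6534, and MT-ND3 of complex I had 909, 1117 and 1060 against 1408, 1311 and 1311. All 3 had every treated library below every vehicle library, with replicate 1 the lowest. Log2 fold changes were −0.40 ± 0.14 for MT-CYB, −0.38 ± 0.13 for MT-CO3 and −0.37 ± 0.10 for MT-ND3 (edgeR adjusted p = 0.029, 0.0243 and 0.00749).

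MT-ATP6 had 2405, 3411 and 3177 CPM against 3864, 3945 and 3680, again apart, but at −0.34 it did not pass the test. Summing MT-ATP6, MT-ATP8 and the pseudogene gave 3827 ± 741 CPM against 4862 ± 217 in vehicle (SD, n = 3 each), a log2 ratio of −0.35. MT-CO1 at 11398, 15643 and 14990 CPM, MT-CO2 at 5224, 7525 and 7139, and MT-ND4 at 6436, 9804 and 8424 straddled their vehicle means of 14909, 6446 and 8337. Set against the vehicle mean, the median log2 ratio of the 13 was −0.51, 0.07 and −0.18 in the 3 high-dose libraries. Without replicate 1 of the high dose, none of the 13 was called. MT-CYB was then at −0.27, MT-CO3 at −0.26 and MT-ND3 at −0.28, and 3 nuclear members were called. The larger ribosomal RNA of the same genome, MT-RNR2, was lower too, at 9056 against 13271 CPM (−0.54 ± 0.12, edgeR adjusted p = 0.00111), in libraries prepared for mRNA.

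In the fit of all libraries lower doses of Cinnamomi Cortex gave no called member against the same vehicle, in edgeR or in DESeq2. Fits of only the groups compared, or without the filter, gave a few, as listed in the last section. At an unadjusted p under 0.05 edgeR gave 1 nuclear member at the medium and 3 at the low dose, and 0 mitochondrial ones. The share of all genes at that unadjusted threshold is not given here, so these counts have no background. Among all genes 2.29% were called by adjusted p at the medium and 1.06% at the low dose. Without Sagunja-tang low replicate 1, 2 nuclear members were called lower at the medium dose (4.49% of all genes) and 4 at the low dose (3.14%). NDUFA1 stood at 45.5, 57.0 and 68.6 CPM at the medium and 34.0, 55.2 and 56.1 at the low dose, so both ranges overlapped that of the high dose or the vehicle. SDHC had 94.2, 93.3 and 104 CPM at the medium dose and 89.2, 96.7 and 91.2 at the low dose, below all high-dose libraries.

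Within the set, the high dose of Cinnamomi Cortex was compared with the low dose, where set code and vehicle play no part. Of the nuclear members 6 of 80 were called higher and 0 lower, with 76 of 80 above 0 and a median of 0.19 against 0.001 over all genes. Set against vehicle, genes under 1 kb had medians of 0.09, 0.05 and 0.08 in the high-dose libraries. In the low-dose libraries these were −0.07, −0.04 and −0.01. Among all genes 10.3% were called higher and 11.2% lower, so the share of nuclear members called, 7.5%, lay below the background. Of the mitochondrial members 4 of 13 were called lower. Counts rose to 24 nuclear and stayed at 4 mitochondrial without Sagunja-tang low replicate 1, against 18.3% and 17.6% of all genes. The 6 nuclear members, among them ATP5MC3, NDUFA8, COX7A2L, SDHC and SDHD, were also among the 8 called against vehicle, and both comparisons share the high-dose libraries.

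Low-dose libraries of ATP5MC3 had 7.19, 5.52 and 6.77 CPM, below all 3 high-dose ones (log2 fold change 0.44 ± 0.13, edgeR adjusted p = 0.00916). NDUFA8 had 35.7, 37.0 and 37.8 CPM at the low dose, also apart from the high dose (0.35 ± 0.12, edgeR adjusted p = 0.0329). SDHC was at 0.27 ± 0.08 (edgeR adjusted p = 0.0102) and COX7A2L at 0.32 ± 0.11 (0.0236). SDHD was at 0.24 ± 0.08 (edgeR adjusted p = 0.0388), although 1 low-dose library at 49.0 CPM exceeded 1 high-dose library at 47.6.

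Mitochondrial members at the low dose stood at 4207, 3659 and 4057 CPM for MT-ATP6, which was −0.40 ± 0.13 at the high dose (edgeR adjusted p = 0.0247). MT-CO3 had 7273, 6364 and 6310 CPM and MT-ND3 1293, 1268 and 1215 CPM at the low dose, all above the high dose. Their log2 fold changes were −0.35 ± 0.13 and −0.29 ± 0.10 (edgeR adjusted p = 0.0385 and 0.0432). MT-CYB was at −0.36 ± 0.14 (edgeR adjusted p = 0.0489), with 5374, 4543 and 4392 CPM at the low dose and an overlap with the 4461 of high-dose replicate 2. The calls depended on single libraries. Leaving out low-dose replicate 1 left 1 member called, and leaving out high-dose replicate 1 left 2 nuclear and 0 mitochondrial members.

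**Figure D3:**
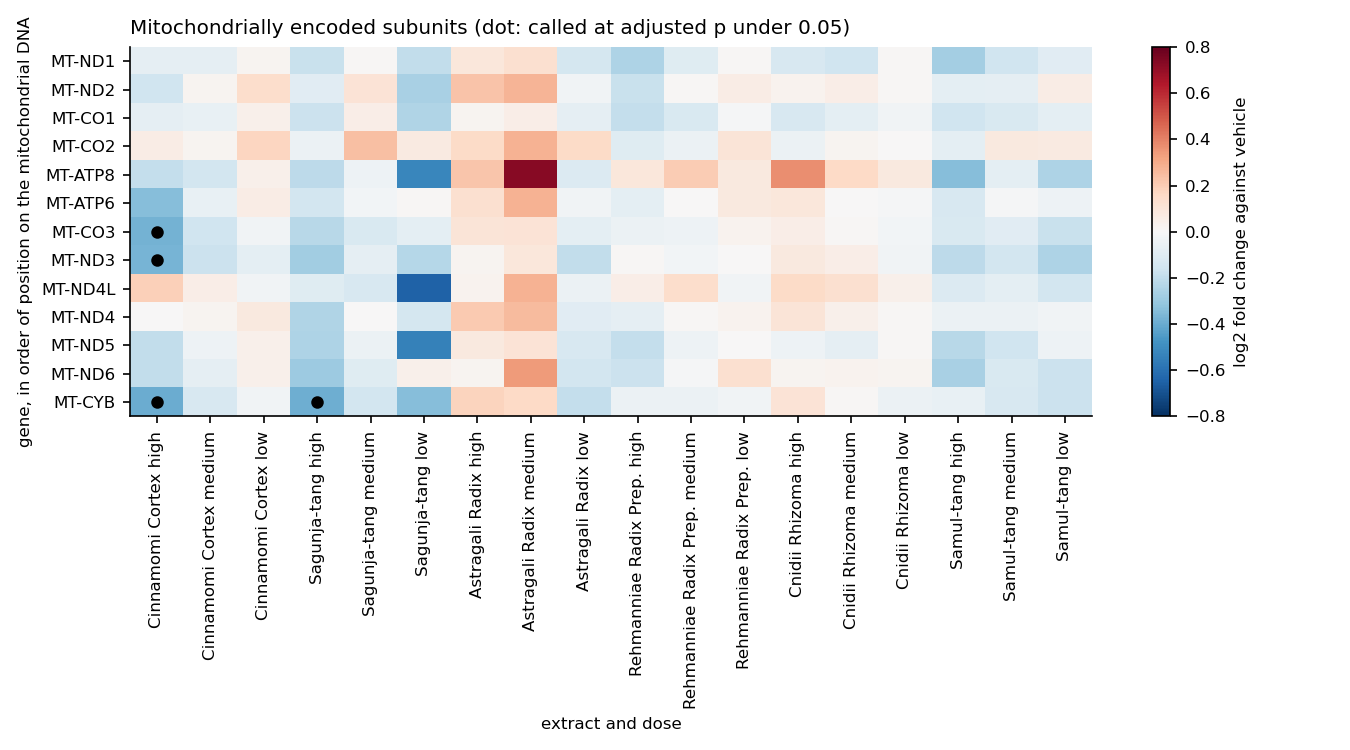
Log2 fold change against vehicle (colour, blue for lower and red for higher) of the 13 mitochondrially encoded members, in order of their position on the mitochondrial genome along the y axis, in the 18 groups with more than 1 library along the x axis. Dots mark members that passed the test: MT-CO3, MT-ND3 and MT-CYB in Cinnamomi Cortex high and MT-CYB in Sagunja-tang high. The column of Astragali Radix medium is red in all 13, and that of Sagunja-tang high is blue in all 13.

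Other genes of the pathway were taken from lists that were chosen with earlier results of these data known. At the high dose of Cinnamomi Cortex against vehicle, 6 of 18 complex I assembly factors were called higher and 0 lower (11.8% and 10.9% of all genes). TMEM186 was at a log2 fold change of 0.73 ± 0.20, TMEM126B at 0.55 ± 0.10 and NDUFAF1 at 0.49 ± 0.14 (edgeR adjusted p = 0.00482, 2.44e-05 and 0.0108). Of the other assembly factors 2 of 10 for complexes II and III, 5 of 23 for complex IV and 2 of 6 for complex V were called higher and 0 lower. These included SDHAF4 (0.59), PET117 (0.64), the copper carrier COX17 (0.34) and FMC1 (0.50), as log2 fold changes. Among genes that copy, transcribe or process mitochondrial DNA and RNA, 8 of 30 were called higher and 0 lower, among them the rRNA methyltransferase TFB1M (0.49), FASTKD1 (0.32) and FASTKD2 (0.30). Of 78 mitochondrial ribosomal proteins 8 were called higher and 1 lower, and of 20 import genes 0 higher and 1 lower. In the fit that left out Sagunja-tang low replicate 1, 7 complex I assembly factors were higher, and 4, 9 and 3 of those for complexes II and III, IV and V, with 1 lower for complex IV. The genes for mitochondrial DNA and RNA then had 11 higher and 2 lower, the ribosomal proteins 19 and 3, and the import genes 2 and 3. Of all genes 17.6% were higher and 18.3% lower in that fit.

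Regulators of mitochondrial biogenesis were split, with 1 of 9 higher (ESRRA, 0.49) and 3 lower (PPRC1 −0.47, NRF1 −0.25 and GABPB1 −0.18). Of 18 genes of the tricarboxylic acid cycle and pyruvate dehydrogenase, 2 were called higher and 1 lower, where 11.8% of all genes were higher and 10.9% lower. Glycolysis genes had 8 of 18 higher and 0 lower, led by ALDOC (1.60), ENO2 (1.21) and HK2 (0.72). Known targets of the hypoxia response had 13 of 15 higher and 0 lower, led by NDRG1 (1.61), SLC2A3 (1.11) and ADM (1.01). The glycolysis and hypoxia lists were drawn up with results of these libraries known, and the other lists with earlier results of these data known. Counts from any of these lists are therefore no independent evidence of a direction. In the fit without Sagunja-tang low replicate 1 glycolysis had 12 higher and the hypoxia targets 13, with 0 lower in both. The biogenesis regulators then had 1 higher and 3 lower, and the cycle genes 3 and 1, against 17.6% and 18.3% of all genes. Markers of cell types moved in the same libraries: 3 of 4 tested astrocyte, 5 of 8 fibroblast and smooth muscle and 2 of 2 epithelial markers were called lower (3, 6 and 2 without Sagunja-tang low replicate 1). COL1A1 was at −0.56, ACTA2 at −0.89, SOX9 at −0.34 and KRT18 at −1.56, and their part in the subunit results was not tested.

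Promoters are shown for members called in both comparisons of Cinnamomi Cortex, which share the high-dose libraries. RefSeq promoter windows (250 bases before to 50 after the start, GRCh38.p14) were at hand for NDUFA8, SDHD and COX7A2L of the 6. Capitals mark GCGCATGC, the core letters of sites of nuclear respiratory factor 1, and CCGGAAG, those of ETS factors, on either strand. In both promoters GCGCATGC occurs on each strand in overlapping places, and together these make the longer run of capitals.
NDUFA8 promoter, chr9:122159730-122160029, minus strand: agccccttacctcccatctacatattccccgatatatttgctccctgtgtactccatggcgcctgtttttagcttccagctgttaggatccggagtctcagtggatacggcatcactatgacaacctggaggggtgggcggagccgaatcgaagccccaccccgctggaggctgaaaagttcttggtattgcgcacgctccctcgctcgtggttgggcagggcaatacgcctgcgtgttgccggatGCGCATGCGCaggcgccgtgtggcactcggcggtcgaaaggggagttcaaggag
SDHD promoter, chr11:112086623-112086922, plus strand: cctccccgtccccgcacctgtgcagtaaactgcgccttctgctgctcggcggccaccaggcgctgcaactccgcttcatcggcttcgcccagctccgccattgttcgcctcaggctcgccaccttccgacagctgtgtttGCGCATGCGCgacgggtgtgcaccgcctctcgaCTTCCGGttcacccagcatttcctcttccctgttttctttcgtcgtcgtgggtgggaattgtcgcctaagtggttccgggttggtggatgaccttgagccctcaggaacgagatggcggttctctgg
Neither sequence, nor AAGATGGC (YY1), TGACNNNGC (antioxidant response) or ACGTG (hypoxia response), was found in the windows of COX7A2L. In 35116 promoters of this table, GCGCATGC occurred in 3.05% and CCGGAAG in 10.3%, and in 78 promoters of 65 nuclear members in 19.2% and 26.9%. AAGATGGC occurred in 2.89% of all and 16.7% of member promoters, TGACNNNGC in 13.3% and 15.4%, and ACGTG in 21.4% and 24.4%. These shares describe letters and not binding.

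Astragali Radix, the root of Astragalus, shares its set with Cinnamomi Cortex. In the fit of all libraries no mitochondrial member was called at any of its doses. At the medium dose all 13 were above 0, with a median log2 fold change of 0.25, but none passed the test (edgeR, 2 at an unadjusted p under 0.05, DESeq2 0). The share of all genes at the unadjusted threshold is not given here. MT-ATP8 had 892, 532 and 828 CPM against 397, 541 and 435 in vehicle, with overlap, at 0.73 ± 0.26 (edgeR adjusted p = 0.119). MT-CO2 had a mean of 7769 against 6446 CPM and MT-ND6 644 against 514, both with every library above vehicle. Of the nuclear members 1 of 80 was called higher at the medium dose (1.79% of all genes), the copy UQCRHL, and 0 lower (2.15%). It had 5.57, 3.37 and 5.06 CPM against 3.00, 3.51 and 2.98 in vehicle, which overlapped, at 0.57 ± 0.17 (edgeR adjusted p = 0.0436), and kept the call in 1 of 6 fits that left out 1 library each. Without Sagunja-tang low replicate 1, 7 nuclear members were called higher and 5 lower at this dose, against 5.27% and 8.59% of all genes.

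In the fit of all libraries no member was called at the high dose of Astragali Radix (4.45% of all genes were), and 5 nuclear members had an unadjusted p under 0.05. The share of all genes at that unadjusted threshold is not given here. Replicate 1 had all 13 mitochondrial members above the vehicle mean, and the others had 6 and 0 of 13, with median log2 ratios of 0.46, −0.01 and −0.15. Its MT-CYB stood at 6985 CPM beside 5041 and 4571, against 4950, 4745 and 5050 in vehicle. Between the high and the low dose all 13 mitochondrial members were above 0, with a median of 0.21, and none was called (0.28% of all genes were). MT-CYB was at 0.37 (edgeR adjusted p = 0.439).

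The dose effects of both extracts were then set against each other in the same fit, a contrast added after the data had been seen. The high-minus-low difference was larger for Cinnamomi Cortex than for Astragali Radix in 2 of 80 nuclear members, and smaller in 4 of 13 mitochondrial ones. Among all genes 6.73% were called in the first and 7.67% in the second direction. SDHC was at 0.37 ± 0.11 (edgeR adjusted p = 0.0178). MT-CYB was at −0.74 ± 0.19, MT-ATP6 at −0.55 ± 0.19, MT-CO3 at −0.53 ± 0.18 and MT-ND3 at −0.50 ± 0.15 (edgeR adjusted p = 0.00621, 0.0395, 0.0352 and 0.0154). Without Astragali Radix high replicate 1 none of the 93 members was called, and without Sagunja-tang low replicate 1 23 nuclear members differed in the first and 4 mitochondrial ones in the second direction, against 13.8% and 14.1% of all genes.

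Sagunja-tang at the high dose had 2 of 80 nuclear members called higher (8.94% of all genes) and 1 of 13 mitochondrial members called lower (8.11%). NDUFA1 had 67.2, 76.6 and 60.4 CPM, again above all vehicle libraries, at a log2 fold change of 0.79 ± 0.26 (edgeR adjusted p = 0.0315). NDUFB3 had 20.9, 23.3 and 19.1 CPM against 16.0, 16.2 and 14.4, without overlap, at 0.45 ± 0.16 (edgeR adjusted p = 0.0411). MT-CYB had 3923, 3551 and 3646 CPM, below all vehicle libraries, at −0.39 ± 0.14 (edgeR adjusted p = 0.0403). With 1 of the 6 libraries left out in turn, NDUFA1 and NDUFB3 kept the call in 1 fit each and MT-CYB in 0. The other mitochondrial members lay on the same side: the median was −0.21, 0 of 13 were above 0, and 10 of 13 had every library below vehicle (23.8% of all genes did). Leaving out single libraries gave 0 to 23 called members. Without Sagunja-tang low replicate 1 the counts were 11 nuclear members higher and 10 lower, and 2 mitochondrial lower, against 15.2% and 15.8% of all genes.

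At the high dose of Sagunja-tang the list of glycolysis genes had 1 of 18 higher and 4 lower (GAPDH −0.41, GPI −0.31 and SLC2A1 −0.29), and the hypoxia targets had 1 of 15 higher (PFKFB4, 0.83) and 1 lower (NDRG1, −0.53). Complex I assembly factors had 4 of 18 higher and 0 lower, led by TMEM186 at 0.57. Among all genes 8.94% were called higher and 8.11% lower. In the fit without Sagunja-tang low replicate 1 these 3 lists had 2 higher and 6 lower, 1 higher and 4 lower, and 5 higher and 0 lower. Of all genes 15.2% were then higher and 15.8% lower.

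At the medium dose of Sagunja-tang UQCRB, a subunit of complex III, was the 1 called member (3.51% of all genes were higher, 2.81% lower). It had 207, 265 and 187 CPM against 180, 172 and 169 in vehicle, all above, at 0.36 ± 0.10 (edgeR adjusted p = 0.0263), and 0.20 without replicate 2. Without Sagunja-tang low replicate 1, 6 nuclear members were called higher and 7 lower at this dose, against 8.12% and 9.44% of all genes. Mitochondrial levels of the same libraries went different ways, with medians of 0.28, −0.43 and −0.10 against the vehicle mean.

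The low dose of Sagunja-tang had 42 of 80 nuclear members called higher and 0 lower, where 13.6% of all genes were higher and 8.45% lower, and this rested on replicate 1. In that library 78 of 80 nuclear members were above the vehicle mean, with a median log2 ratio of 0.84, whereas replicates 2 and 3 had medians of 0.02 and −0.01. The skew of replicate 1 was not limited to members. Its median log2 change was 0.66 over genes with transcripts under 1 kb and −0.62 over those above 4 kb. Cytosolic ribosomal protein genes took 7.29% of its counts, against 3.83% in replicates 2 and 3. The part of transcript length in its member values was not tested. NDUFV1, which carries the NADH site of complex I, had 162 CPM in replicate 1 and 59.9 and 56.3 in the others. ATP5F1D had 121 CPM beside 34.4 and 32.2, and ATP5MK 60.7 beside 19.3 and 19.2. The readthrough gene ATP5MF-PTCD1 went the other way, at 0 beside 12.1 and 11.8 CPM. Its mitochondrial members were uneven as well: MT-ND4L had 134 CPM beside 761 and 950, MT-ND5 904 beside 2847 and 2877, and MT-ATP8 187 beside 373 and 390. With all 3 libraries, 8 of 13 mitochondrial members lay below every vehicle library (12.2% of all genes did). Without replicate 1, 0 members were called higher and 12 nuclear ones lower, where 6.92% of all genes were lower.

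Between the high and the low dose of Sagunja-tang 22 nuclear members were called lower (12.5% of all genes) and 0 higher (7.93%), and none without that library. Comparing only the groups concerned, with their own spread, gave 0 called members for both comparisons of the low dose. That spread includes replicate 1, whose scatter to replicates 2 and 3 was 30.85 and 32.46, against 0.97 between those. The 0 therefore cannot show whether members changed.

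**Figure D4:**
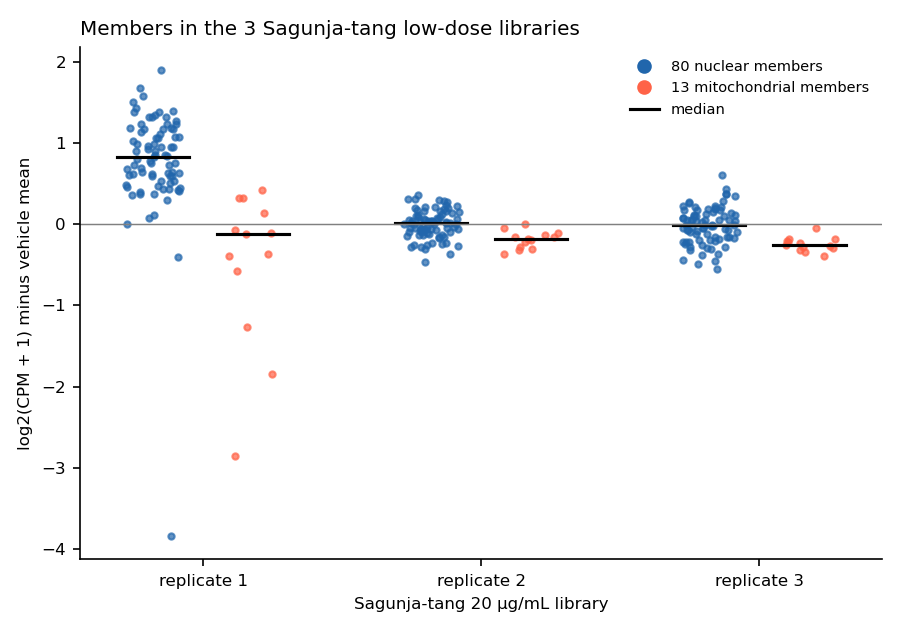
Level of each member, as log2(CPM + 1) minus its vehicle mean (y axis), in the 3 libraries of Sagunja-tang low (x axis), with 1 point per member, nuclear in blue and mitochondrial in red, and a black bar at the median. Nuclear medians are 0.84 in replicate 1 and 0.02 and −0.01 in replicates 2 and 3, and mitochondrial medians are −0.12, −0.18 and −0.26.

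In the fit of all libraries no member was called for Rehmanniae Radix Preparata, Cnidii Rhizoma or Samul-tang against vehicle, by edgeR or DESeq2. The same held for Astragali Radix low against vehicle, and for high against low dose of these extracts. The result depended on the fit. Fitted on only the groups compared, all of these extracts had called members against vehicle at some or all doses, as listed in the last section. At an unadjusted p under 0.05, edgeR gave 0, 1 and 0 nuclear members for Rehmanniae Radix Preparata from high to low dose, 0 at each dose of Cnidii Rhizoma, and 4, 6 and 6 for Samul-tang. Astragali Radix low gave 7. Of mitochondrial members 1 reached it, at the low dose of Samul-tang. Between high and low dose only Astragali Radix had any, with 1 nuclear and 2 mitochondrial members. The share of all genes at that unadjusted threshold is not given here, so these counts have no background. Shares of genes called are at an adjusted p under 0.05. Of all genes, from high to low dose, 2.37%, 0.714% and 0.993% were called for Rehmanniae Radix Preparata, 1.35%, 0.297% and 0.383% for Cnidii Rhizoma and 4.13%, 1.75% and 2.62% for Samul-tang, and 3.67% for Astragali Radix low. Between high and low dose these shares were 0.805%, 0.228% and 0.736% for the first 3 extracts. Nuclear medians lay between −0.01 and 0.05 in these 9 groups. Mitochondrial medians were −0.13, −0.09 and −0.09 for Samul-tang, and −0.08 to 0.05 for the others. In Samul-tang 10, 8 and 7 of 13 members lay below all vehicle libraries, as did 22.5%, 25.7% and 26.1% of all genes. Without Sagunja-tang low replicate 1 calls appeared as lower nuclear members. These were 8, 7 and 9 at the doses of Samul-tang (7.46%, 7.16% and 7.97% of all genes were lower), 8 and 9 at the high and low dose of Astragali Radix (7.26% and 8.86%), and 0 for Rehmanniae Radix Preparata and Cnidii Rhizoma.

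A few nuclear members recurred among these lower calls. In the fit without that library and over 18 comparisons that share the vehicle, COX8A was called lower in 12, NDUFS8 and NDUFB9 in 10 each and ATP5F1D in 9, all without a higher call. These genes were singled out after their values were seen. How many of all genes recur as often over these comparisons was not counted, so the recurrence is not shown to be particular to the members. COX8A had 131, 160 and 132 CPM in Sagunja-tang high and 129 and 142 in Samul-tang high, against 180, 167 and 168 in vehicle, without overlap. In the fit of all libraries its log2 fold change in Samul-tang low was −0.37 ± 0.14 (edgeR adjusted p = 0.183). ATP5F1D had 35.3, 33.5 and 31.2 CPM in Sagunja-tang high against 48.2, 46.9 and 47.6 in vehicle, at −0.50 ± 0.24 (edgeR adjusted p = 0.156). NDUFB5 and ATP5MJ were called higher in 4 of the 18 and NDUFA1 and NDUFB3 in 3.

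Of the annotated transcripts, G and C made up 69.0% for ATP5F1D, 62.0% for NDUFS8, 58.6% for COX8A and 50.2% for NDUFB9. Among the members with higher calls the shares were 53.8% for NDUFA1, 46.0% for ATP5MJ, 41.7% for NDUFB3 and 40.5% for NDUFB5. The lower and higher recurring members thus overlapped in base composition. Over the 80 nuclear members, Spearman's correlation between the G and C share of the annotated transcripts and the log2 fold change was −0.51 for Cinnamomi Cortex high, −0.59 for Sagunja-tang high, −0.68 for Sagunja-tang medium and −0.68 for Samul-tang low. It was −0.04 to −0.30 at the doses of Rehmanniae Radix Preparata and Cnidii Rhizoma. Genes of 1 library share its preparation and depth, and the comparisons share the vehicle, so these values are a description. Over 13585 other genes the value was 0.02 for Cinnamomi Cortex high, −0.38 for Sagunja-tang high, −0.41 for Sagunja-tang medium and −0.38 for Samul-tang low. Split at the median of 49.6% G and C and without Sagunja-tang low replicate 1, Sagunja-tang high had 8 higher and 0 lower calls among the 40 members below it, and 3 higher and 10 lower calls among the 40 above it. Cinnamomi Cortex high had 14 and 0 below it, and 7 and 4 above it. In that fit 15.2% of all genes were called higher and 15.8% lower for Sagunja-tang high, and 17.6% and 18.3% for Cinnamomi Cortex high. These shares of all genes were not split by G and C.

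In single libraries the same correlation was taken against the vehicle mean, and its ranges overlapped between sets. Its median was −0.17 (−0.32 to 0.11) over the 18 libraries of set 5 (Rehmanniae Radix Preparata and Cnidii Rhizoma), −0.55 (−0.63 to 0.19) over the 18 of set 6 (Cinnamomi Cortex and Astragali Radix) and −0.59 (−0.70 to 0.05) over the 15 of set 7 (the formulas). The 6 of set 4 had −0.24 (−0.43 to 0.03), and the vehicle libraries 0.05 (−0.36 to 0.38). In set 6 replicate 1 of Cinnamomi Cortex high and medium (−0.28 and 0.07) and low (0.19) and of Astragali Radix high (0.08) stood apart. All other libraries of set 6 were at −0.49 or lower. In set 7 Sagunja-tang medium and low replicate 1 (−0.32 and 0.05) and Samul-tang high replicate 2 (−0.27) stood apart, and the others were at −0.53 or lower. Within Cinnamomi Cortex the 3 low-dose libraries had 0.19, −0.57 and −0.59 and the high-dose ones −0.28, −0.51 and −0.62. Between its high and low dose the correlation over members was −0.24, with median log2 fold changes of 0.23 below and 0.15 above that G and C share. The part of base composition in the called members was not tested.

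**Figure D5:**
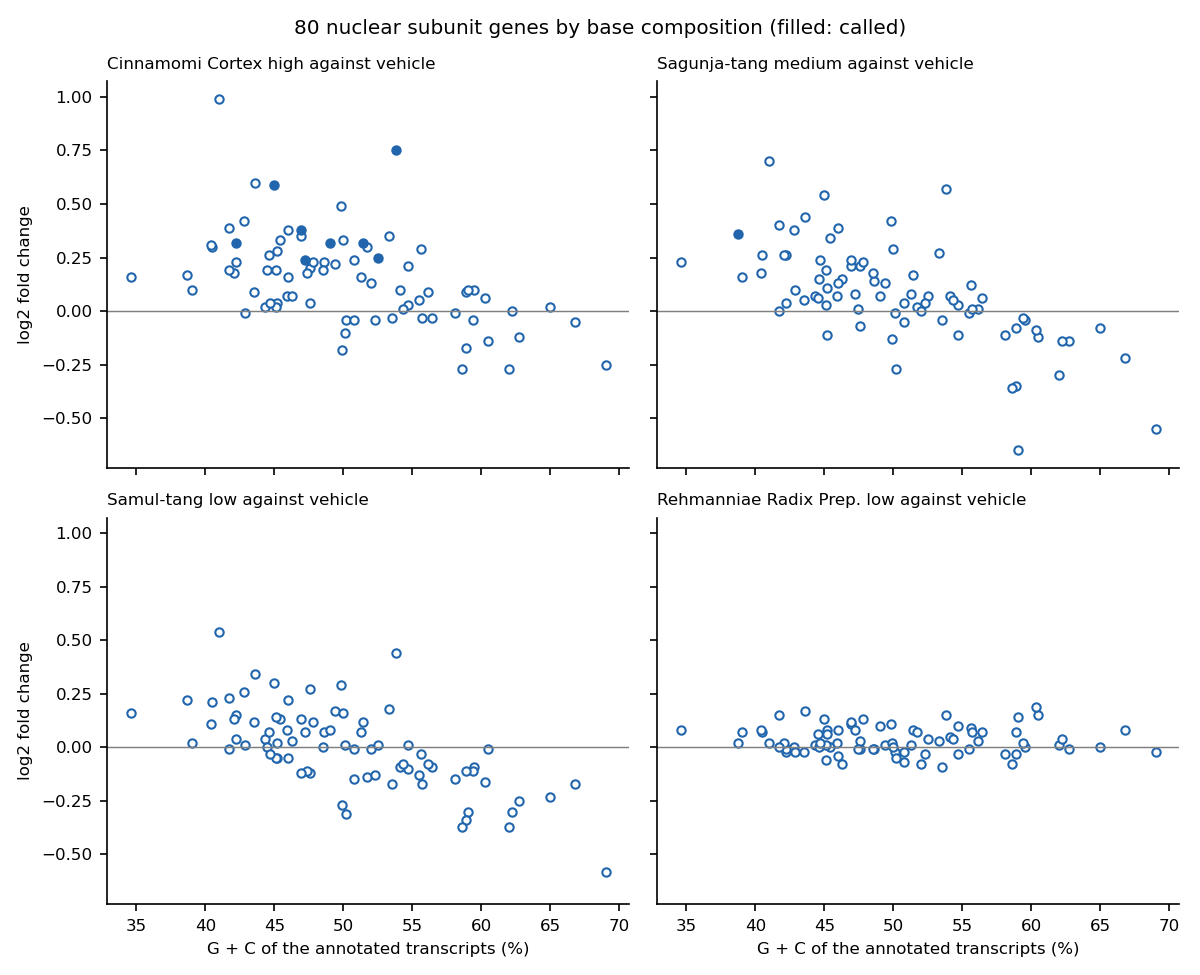
Log2 fold change against vehicle (y axis) of the 80 nuclear members against the G and C percentage of their annotated transcripts (x axis), 1 point per member, for Cinnamomi Cortex high, Sagunja-tang medium, Samul-tang low and Rehmanniae Radix Preparata low. Filled points passed the test. The trend is downward with a Spearman correlation of −0.51 in Cinnamomi Cortex high and −0.68 in Sagunja-tang medium, and nearly flat, at −0.04, in Rehmanniae Radix Preparata low.

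Angelicae Gigantis Radix and Paeoniae Radix, with 1 library a dose, have no replicate check and no test. For Angelicae Gigantis Radix the nuclear median log2 ratio to vehicle was 0.02, 0.07 and 0.18 from high to low dose, with 45, 60 and 76 of 80 members above 0. Its mitochondrial medians were −0.10, −0.18 and −0.01, and MT-ND1 was at −0.50 at the high dose. For Paeoniae Radix the nuclear medians were −0.01, −0.09 and −0.01, with 37, 11 and 36 of 80 above 0, and the mitochondrial ones −0.03, −0.13 and −0.21. The nuclear minus mitochondrial level lay above the vehicle range in all 3 libraries of Angelicae Gigantis Radix, at −5.45, −5.36 and −5.38. For Paeoniae Radix it lay within that range at the high dose (−5.57) and above it at the medium and low doses (−5.52 and −5.41). The vehicle range is narrow, and single libraries of Rehmanniae Radix Preparata high (−5.25) and Cnidii Rhizoma medium (−5.30) also lay above it.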

How the data were processed

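RNA of 60 libraries was sequenced as 100 bp paired-end reads from a directional mRNA kit, per the labels' protocols. Per the submitters' processing notes, RSEM 1.3.3 and STAR 2.7.3a were used, with Trim Galore 0.6.5 and FastQC 0.11.9 also named and hg38 and GRCh38 as builds, and with an annotation release not given in the sources used here. Deposited by the authors were estimated counts per Ensembl gene (RSEM expected counts, 90.67% of them whole), rounded here for the tests. Directional libraries keep strand, but whether the counting used it is not stated. A further 219 columns of the table were not used. Symbols, gene types, lengths (the median over basic coding transcripts), G and C shares (the mean over these transcripts) and coding sequences came from GENCODE 29.

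Genes passed filterByExpr, and 54 libraries in 19 groups were fitted together with edgeR 4.0.16 (limma 3.58.1, R 4.3.3): TMM scaling, a robust quasi-likelihood fit on group, and Benjamini-Hochberg adjustment within each comparison at 0.05. Groups of 1 library entered no fit. CPM used TMM-scaled library sizes, and levels log2(CPM + 1). The fit, tested on simulated counts for Cinnamomi Cortex high against vehicle (17329 genes), called 30%, 72%, 98% and 100% of 50 genes each changed by 1.25, 1.5, 2 and 4 times, with 5 false calls. Most 1.25-fold changes were therefore missed in this simulation. Its changed genes were drawn at random and not from the members. Far more genes were called in the real comparison (2072 higher and 1914 lower), so the rate for members may differ. Over 51 pairs of replicates the scatter of counts was 0.61 to 32.46, against 0.45 for counting noise alone, so no library was counted as a copy of another. Replicate numbers recur across groups but deviations of same-numbered libraries correlated at −0.14 to 0.14, so they were not taken as pairs. That correlation ran over all genes tested and cannot exclude a step of preparation shared by same-numbered libraries of a set. Replicate 1 of Cinnamomi Cortex low scattered by 2.4 and 2.03 from replicates 2 and 3 (0.73 between those). For Astragali Radix low these values were 0.83 and 1.24 (0.94).

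Named genes were all mitochondrial members, the up to 5 (high dose) or 3 (other doses) called nuclear members of largest change per direction, the most abundant members, tissue-restricted paralogs, members under the filter, and up to 3 called genes per direction from each other list. Members beyond these, among them several of Cinnamomi Cortex high and those of the recurrence and composition paragraphs, were named after their values were seen. The members and lists were chosen with earlier results of these data known. Alternatives were DESeq2 1.42.0, library size alone, no filter, only the groups compared, a replicate block, other scores, and leaving out each library. Scores over members, shares of counts and comparisons of single libraries were not tested. Python 3.11.15 served for the rest. Values of 1 member were counted in the totals but are not reported here.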

Additional observations from a re-analysis of the deposited data

Results flagged for a closer look

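In SDHC and 4 mitochondrial members the effect of the high against the low dose differed between Cinnamomi Cortex and Astragali Radix, by a test of the difference itself in edgeR's quasi-likelihood fit with Benjamini-Hochberg adjustment. The differences, as log2 values of Cinnamomi Cortex minus Astragali Radix, were 0.37 for SDHC, −0.74 for MT-CYB, −0.50 for MT-ND3, −0.55 for MT-ATP6 and −0.53 for MT-CO3. The contrast was chosen after the data had been seen, and without Astragali Radix high replicate 1 none of these was called.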

How the results depend on the processing

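Fold changes kept their direction under the alternatives, except in 24 values that reversed without Sagunja-tang low replicate 1. As log2 fold changes, with the value without that library first and then the other end of the range over left-out libraries, these were for Sagunja-tang low against vehicle UQCRC1 (−0.05 to 0.49), NDUFA10 (−0.02 to 0.36), COX5B (−0.06 to 0.86), NDUFB10 (−0.12 to 0.66), NDUFS6 (−0.06 to 0.85), NDUFB11 (−0.16 to 0.72), NDUFB8 (−0.03 to 0.54), NDUFV1 (−0.03 to 0.92), NDUFA13 (−0.23 to 0.77) and NDUFS3 (−0.05 to 0.65). For Sagunja-tang high against low they were ATP5F1D (0.00 to −1.21), NDUFB7 (0.03 to −0.68), NDUFS7 (0.02 to −0.82), COX7B (0.04 to −0.71), NDUFB10 (0.04 to −0.72), NDUFS6 (0.05 to −0.85), NDUFB11 (0.12 to −0.74), NDUFB9 (0.05 to −0.52), NDUFC2 (0.05 to −0.57), ATP5MJ (0.01 to −0.67), NDUFS5 (0.08 to −0.60), NDUFA11 (0.07 to −0.65), NDUFA13 (0.03 to −0.95) and NDUFS3 (0.05 to −0.64). Numbers of called members moved between alternatives, and the cause was not tested. The counts that follow are totals over both directions and both genomes, without the share of all genes called in the same fit. They show how calls depend on the fit, and not whether members changed more than other genes. With no filter on low counts they were 26, 2 and 1 for Cinnamomi Cortex high, medium and low against vehicle, 22 and 14 for Sagunja-tang high and medium, 4, 14 and 6 for Astragali Radix, 2 for Cnidii Rhizoma high and 6, 5 and 4 for Samul-tang. Without the filter the high against the low dose gave 28 for Cinnamomi Cortex, 41 for Sagunja-tang, 3 for Astragali Radix and 1 for Rehmanniae Radix Preparata, and the contrast of Cinnamomi Cortex with Astragali Radix gave 30. Fitting each comparison on its own libraries gave 43, 4 and 4 for Cinnamomi Cortex, 43, 4 and 0 for Sagunja-tang, 4, 31 and 38 for Astragali Radix, 5, 4 and 1 for Rehmanniae Radix Preparata, 14 and 2 for Cnidii Rhizoma and 23, 45 and 49 for Samul-tang. In such fits the high against the low dose gave 29 for Cinnamomi Cortex, 0 for Sagunja-tang and 1 for Cnidii Rhizoma, and the contrast gave 10. DESeq2 gave 3 for Sagunja-tang medium and 3 for Astragali Radix medium, and library size alone gave 2 for the latter. With the replicate block Astragali Radix medium gave 2 called members, and the block moved no other count by more than 1.5 times. Leaving out single libraries gave 3 to 29, 0 to 2 and 0 to 4 for Cinnamomi Cortex, 0 to 23, 0 to 13 and 12 to 68 for Sagunja-tang, 0 to 8, 0 to 12 and 0 to 9 for Astragali Radix and 0 to 8, 0 to 7 and 0 to 9 for Samul-tang. It gave 1 to 28 for Cinnamomi Cortex high against low, 0 to 58 for Sagunja-tang high against low, 0 to 27 for the contrast, and 0 for every other comparison. The nuclear minus mitochondrial level above that of vehicle became 0.06 for Samul-tang low, 0.07 for Paeoniae Radix high and 0.03 for its medium dose when summed CPM were compared. Without MT-ATP8 and MT-ND4L it became 0.18 and 0.28 for Angelicae Gigantis Radix high and medium, and 0.07, 0.04 and 0.21 for Paeoniae Radix. With library size alone, nuclear medians became 0.08 and 0.12 for Angelicae Gigantis Radix high and medium and 0.08, −0.04 and 0.05 for Paeoniae Radix, and mitochondrial ones −0.04 and −0.13, and 0.06, −0.08 and −0.15. Libraries of 20604791 to 29609799 counts limit low members most, and COX7A1 with at most 13 counts could not be tested.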
